A study of Mus musculus with 8 samples.

Results

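The cell division cycle runs on a set of transcripts that accumulate in G2 and are used in mitosis, and 38 such genes were followed here in mouse megakaryocytes grown in a soft hydrogel or in liquid medium. The 38 were taken by symbol from a list of G2 and mitosis genes that leaves out cytokinesis genes and, apart from Cenpe, kinesins. All 38 were found once among the 27679 genes of the count table, and all 38 had enough counts to be tested, with 38 reads for Cks2 in one hydrogel library as the smallest count of any of them. By role they comprised 11 genes of spindle kinases and spindle assembly, 6 of the mitotic entry kinase and its partners, 6 of the kinetochore and centromere, 4 of the spindle checkpoint, 3 that serve the anaphase-promoting complex, and 8 of chromosome structure and the nuclear envelope.

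The series holds 8 polyA RNA-seq libraries from wild-type C57BL/6 mouse bone marrow. In the hydrogel group (4 libraries), lineage-negative marrow cells spent 3 days in a methylcellulose gel (2%, Young modulus 30 to 60 Pa). In the liquid group (4 libraries), the same kind of cells spent 3 days in liquid medium. In both groups the larger, mature megakaryocytes were then isolated on a 2 to 4% BSA gradient, and the design describes the 4 cultures of each condition as independent. A gradient enriches by size and does not purify, so that other marrow cells can remain in either group, and nothing used here states the number, age or sex of the mice. The comparison asks what a soft, confining gel in place of liquid is accompanied by in these cells.

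Entry into mitosis is driven by the kinase Cdk1 bound to a B-type cyclin. The spindle is then assembled with the help of Aurora A and its activator Tpx2, kinetochores attach chromosomes to it, and the checkpoint withholds Cdc20 from the anaphase-promoting complex until attachment is complete. Megakaryocytes are known for endomitosis, a cycle in which they replicate their DNA, enter mitosis and leave it without dividing, so that they become polyploid and use much of this machinery without completing cytokinesis. In other cells of the marrow the same transcripts mark ordinary division. Many G2 and mitosis genes share a promoter layout in which CCAAT boxes, bound by the factor NF-Y, stand a short way upstream of a cell cycle genes homology region (CHR), an element bound by the MuvB complexes that repress these genes in resting cells and, with B-Myb and FoxM1, activate them in G2.

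The promoters of 8 of the genes on which the comparison turns are shown with their matches to the elements of this shared layout. Sequences are from RefSeq (assembly GRCm38.p6, another build than the counts), each running from 120 bases before to 30 bases after the annotated start, 5′ to 3′ along the gene. Capitals mark a CCAAT box (CCAAT, or ATTGG where it lies on the other strand) and a CHR element (TTTGAA or TTCGAA, with TTCAAA for TTTGAA on the other strand). The entry kinase Cdk1 (chr10:69352883-69353032, minus strand), its cyclin Ccnb2 (chr9:70421525-70421674, minus strand), the cyclin Ccnb1 (chr13:100786457-100786606, minus strand) and the Cdk1-binding subunit Cks1b (chr3:89418262-89418411, minus strand) are set beside 4 further genes that rose in hydrogel, Cdc20 (chr4:118437314-118437463, minus strand), Hmmr (chr11:40733408-40733557, minus strand), Ckap2l (chr2:129297183-129297332, minus strand) and Gtse1 (chr15:85859587-85859736, plus strand).
Cdk1: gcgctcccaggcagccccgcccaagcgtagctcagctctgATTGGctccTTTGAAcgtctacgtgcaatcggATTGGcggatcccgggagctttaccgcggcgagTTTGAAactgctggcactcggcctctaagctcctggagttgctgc
Ccnb2: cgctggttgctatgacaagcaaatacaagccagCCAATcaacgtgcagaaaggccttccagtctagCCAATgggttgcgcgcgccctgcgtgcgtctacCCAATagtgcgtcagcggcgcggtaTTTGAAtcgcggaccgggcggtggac
Ccnb1: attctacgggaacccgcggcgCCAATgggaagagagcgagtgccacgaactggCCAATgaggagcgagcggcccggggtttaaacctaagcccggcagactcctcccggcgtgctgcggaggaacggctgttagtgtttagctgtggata
Cks1b: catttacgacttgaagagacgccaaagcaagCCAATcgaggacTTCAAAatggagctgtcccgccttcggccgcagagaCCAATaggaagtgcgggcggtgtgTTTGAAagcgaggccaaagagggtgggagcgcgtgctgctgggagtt
Cdc20: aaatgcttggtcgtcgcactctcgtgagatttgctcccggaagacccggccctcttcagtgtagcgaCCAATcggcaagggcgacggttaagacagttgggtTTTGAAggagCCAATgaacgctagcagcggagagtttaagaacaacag
Hmmr: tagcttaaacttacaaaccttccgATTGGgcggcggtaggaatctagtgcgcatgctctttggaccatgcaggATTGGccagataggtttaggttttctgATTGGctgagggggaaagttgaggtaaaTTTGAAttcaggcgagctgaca
Ckap2l: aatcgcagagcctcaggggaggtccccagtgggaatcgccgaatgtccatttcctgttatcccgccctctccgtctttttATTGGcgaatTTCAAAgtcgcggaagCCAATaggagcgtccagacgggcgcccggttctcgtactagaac
Gtse1: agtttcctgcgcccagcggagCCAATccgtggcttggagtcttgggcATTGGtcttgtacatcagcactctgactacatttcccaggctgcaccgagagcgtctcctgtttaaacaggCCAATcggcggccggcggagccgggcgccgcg
All 8 windows hold at least 2 CCAAT boxes. TTTGAA or TTCGAA, on either strand, is present in 6 of them and was not matched in those of Ccnb1 and Gtse1, which both rose in hydrogel. Only these forms of the CHR element were searched. The windows of Ccnb1 and Gtse1 both hold tttaaa, which was not searched, so they are not shown to lack a CHR element.

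A promoter of 300 bases, from 250 before to 50 after the start, was at hand for 33 of the 38 genes, and Cdc25c, Cdca2, Dlgap5, Smc4 and Tpx2 had none in the table used. Searched on both strands, TTTGAA or TTCGAA occurred in 23 of the 33 (69.7%), against 5254 of the 27025 promoters in the whole table (19.4%). CCAAT occurred in 28 of the 33 (84.8%), against 37.9% of all promoters, and both elements occurred together in 22 of the 33 (66.7%), against 7.70% of all. In 0 of the 33 did a CHR match overlap a CCAAT match, and a match is a description of the sequence only. The CHR counts here cover TTTGAA and TTCGAA alone, and a promoter without a match may hold another form. Of the 10 genes that rose in hydrogel and had a promoter, 7 held a CHR element and all 10 a CCAAT box. Of the 23 others with a promoter, 16 held a CHR element and 18 a CCAAT box. Cdk1, Ccnb2, Cdc20, Hmmr and Cks1b share both elements while their changes differed.

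Each hydrogel library held 27012172 to 37059314 counts and each liquid library 28825468 to 49281611, enough to test 13845 genes. All 18 megakaryocyte markers were detected in every library, at summed levels of 36584 to 53545 CPM in hydrogel and 41040 to 70084 CPM in liquid. CPM is a gene's counts scaled to a common library total, with TMM correction between libraries. By edgeR 11 of the 18 were lower in hydrogel, where 14.1% of all tested genes were lower. Monocyte and macrophage markers were also present. Of the 21 tested (of 24 listed), 17 were higher in hydrogel and 0 lower, where 15.1% of all tested genes were higher. Their median log2 fold change was 2.00. The others listed, Cd163, Timd4 and Vsig4, had 0 to 4 counts per library and were not tested. A pair of libraries stood apart from the rest of their groups in the monocyte and macrophage markers. Hydrogel 1 had 4123 CPM summed over them, where hydrogel 2, 3 and 4 had 7441 to 8925 CPM, and liquid 2 had 2399 CPM, where liquid 1, 3 and 4 had 1111 to 1382 CPM. In bulk RNA such as this, fewer cells of a type and less RNA per cell cannot be told apart, and neither can a higher level per dividing cell and more dividing cells.

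Of the 38 G2 and mitosis genes, 12 (31.6%) were higher in hydrogel at an adjusted p of 0.05 in edgeR's quasi-likelihood test, where 15.1% of all tested genes were. The 12 were Psrc1, Gtse1, Ckap2l, Aurka, Hmmr, Dlgap5, Tpx2, Cenpe, Cenpf, Bub1, Cdc20 and Ccnb1. One gene, Cks1b, was lower (2.63%, where 14.1% of all tested genes were lower), and 25 did not pass in either direction. The changes were small: the median log2 fold change over the 38 was 0.16, against −0.01 over all tested genes, the largest was 0.73 (Psrc1, 1.66-fold), and 32 of the 38 estimates were above 0. The 4 hydrogel libraries lay wholly above the 4 liquid libraries for 7 of the 38 (18.4%), where this held for 14.6% of all tested genes, and wholly below them for 0, where this held for 13.8%. The share wholly above was thus close to the background, and the share wholly below was under it.

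**Figure D1:**
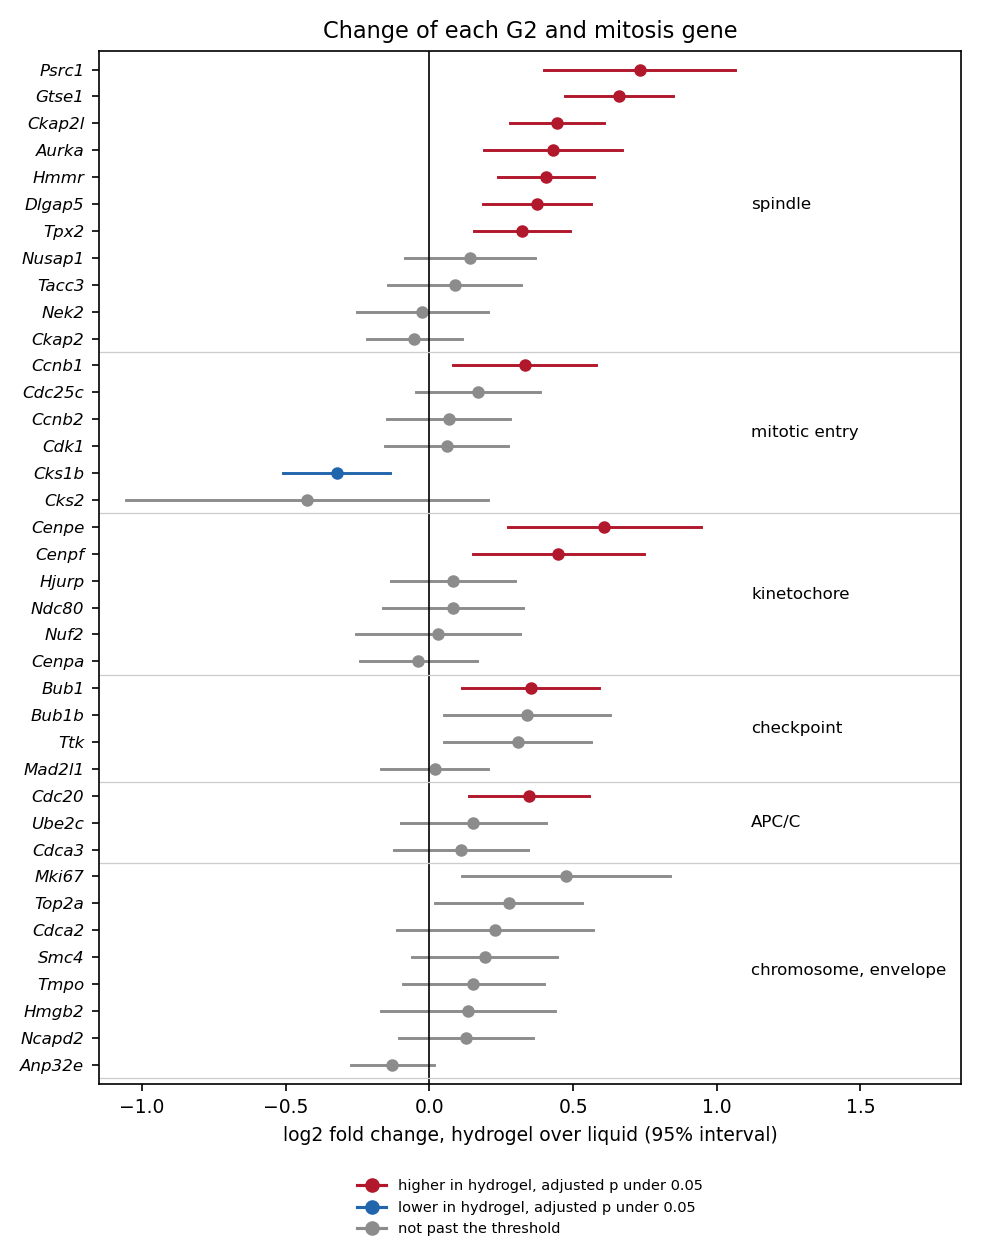
Log2 fold change (hydrogel over liquid, points) with its 95% interval (lines) for each of the 38 genes, grouped by role from the top. Red marks the 12 genes that were higher, blue the 1 that was lower, and grey the 25 that did not pass. Of the spindle genes 7 of 11 are red, and of the chromosome and nuclear envelope genes 0 of 8.

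The 12 calls depended on the libraries included and on whether the level of the macrophage markers was in the model. Without hydrogel 2, hydrogel 4 or liquid 4 the number of genes that were higher was 8, where 10.4%, 11.6% and 11.3% of all tested genes were higher. Without liquid 2 it was 18, where 18% of all tested genes were higher. With hydrogel 1 and liquid 2 both left out, 23 were higher and 1 lower, with a median of 0.30, where 21.6% of all tested genes were higher. That choice was made with the values known. Hydrogel 1 was the lowest hydrogel library for 26 of the 38 genes, and liquid 2 the highest liquid library for 33. A larger count without them therefore follows from the choice. With the macrophage score (the mean centred log2 CPM of those markers) as a covariate in edgeR, 0 of the 38 were higher and 0 lower, 9 had an unadjusted p under 0.05, the median was −0.26 and 7 of the 38 estimates were above 0. In that fit 2.46% of all tested genes were higher, and the score and culture overlap so far that the variance of the culture estimate is inflated 5.79 times, so the fit separates them poorly.

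Spindle kinases and spindle assembly genes held the majority of the rises. Of the 11, 7 were higher (63.6%, where 15.1% of all tested genes were) and 0 lower, with a median log2 fold change of 0.37. The hydrogel libraries lay wholly above the liquid libraries for 6 of the 11 (54.5%), where this held for 14.6% of all tested genes. Gtse1, a microtubule-binding protein that stabilises spindle microtubules, had 49.3, 57.6, 49.6 and 46.0 CPM in hydrogel, against 30.0, 34.3, 32.8 and 31.0 CPM in liquid (log2 fold change 0.66 ± 0.08 SE, edgeR adjusted p = 0.000638). All 4 hydrogel values exceeded the highest liquid value, and the rise was 1.58-fold. Psrc1, another microtubule-associated spindle protein, had 12.9, 9.68, 9.01 and 8.48 CPM in hydrogel, against 5.52, 6.48, 5.88 and 6.27 CPM in liquid (log2 fold change 0.73 ± 0.15 SE, edgeR adjusted p = 0.00544). Hydrogel 1 was the highest library for Psrc1, although it was the lowest hydrogel library for 26 of the 38 genes. Ckap2l, a spindle and centrosome protein, had 688, 725, 692 and 716 CPM in hydrogel, against 479, 541, 526 and 528 CPM in liquid (log2 fold change 0.44 ± 0.07 SE, edgeR adjusted p = 0.00184). The groups were far apart relative to the spread within each, at 705 ± 17.7 CPM in hydrogel and 518 ± 26.9 CPM in liquid (SD, n = 4 each).

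Aurora A and its partner on the spindle moved the same way. Aurka, the kinase of centrosome maturation and bipolar spindle formation, had 57.4, 69.4, 64.3 and 74.7 CPM in hydrogel, against 49.4, 57.8, 42.6 and 47.4 CPM in liquid (log2 fold change 0.43 ± 0.11 SE, edgeR adjusted p = 0.0143). The groups met at the edge, where hydrogel 1 lay just under liquid 2. Tpx2, which activates Aurora A and brings it to spindle microtubules, had 143, 152, 148 and 156 CPM in hydrogel, against 125, 133, 107 and 115 CPM in liquid (log2 fold change 0.32 ± 0.07 SE, edgeR adjusted p = 0.0104). Hmmr, a hyaluronan receptor that is also a spindle pole protein, had 81.5, 87.3, 78.3 and 83.7 CPM in hydrogel, against 61.9, 70.6, 57.5 and 60.0 CPM in liquid (log2 fold change 0.41 ± 0.07 SE, edgeR adjusted p = 0.00329). Neither gene overlapped between the groups, and liquid 2 was the highest liquid library for both. Dlgap5, which stabilises the microtubules that reach kinetochores, had 45.6, 53.1, 50.4 and 54.2 CPM in hydrogel, against 39.4, 44.0, 36.2 and 37.3 CPM in liquid (log2 fold change 0.37 ± 0.08 SE, edgeR adjusted p = 0.00884). It too did not overlap. These 7 calls were made in each of the 8 fits that left out 1 library, and under every other scaling of the libraries that was tried, but not with the macrophage score as a covariate.

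The remaining 4 spindle genes did not pass. Nek2, a kinase that separates the centrosomes, had 54.6, 59.7, 47.3 and 56.9 CPM in hydrogel, against 58.8, 63.7, 48.6 and 51.4 CPM in liquid (log2 fold change −0.02 ± 0.10 SE, edgeR adjusted p = 0.882), and the groups overlapped throughout. Ckap2, a microtubule-associated protein related to Ckap2l, had 27.8, 27.3, 26.5 and 27.6 CPM in hydrogel, against 30.2, 29.4, 27.9 and 25.7 CPM in liquid (log2 fold change −0.05 ± 0.07 SE, edgeR adjusted p = 0.632). Its 95% interval of −0.22 to 0.11 lies below the estimate for Ckap2l. Nusap1, which bundles spindle microtubules near chromosomes, had a log2 fold change of 0.14 (95% interval −0.09 to 0.37, edgeR adjusted p = 0.332), and Tacc3, an Aurora A substrate on kinetochore fibres, 0.09 (−0.14 to 0.32, edgeR adjusted p = 0.562). The estimates for Nek2 and Ckap2 were above 0, at 0.032 and 0.0090, when libraries were scaled by their totals alone.

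**Figure D2:**
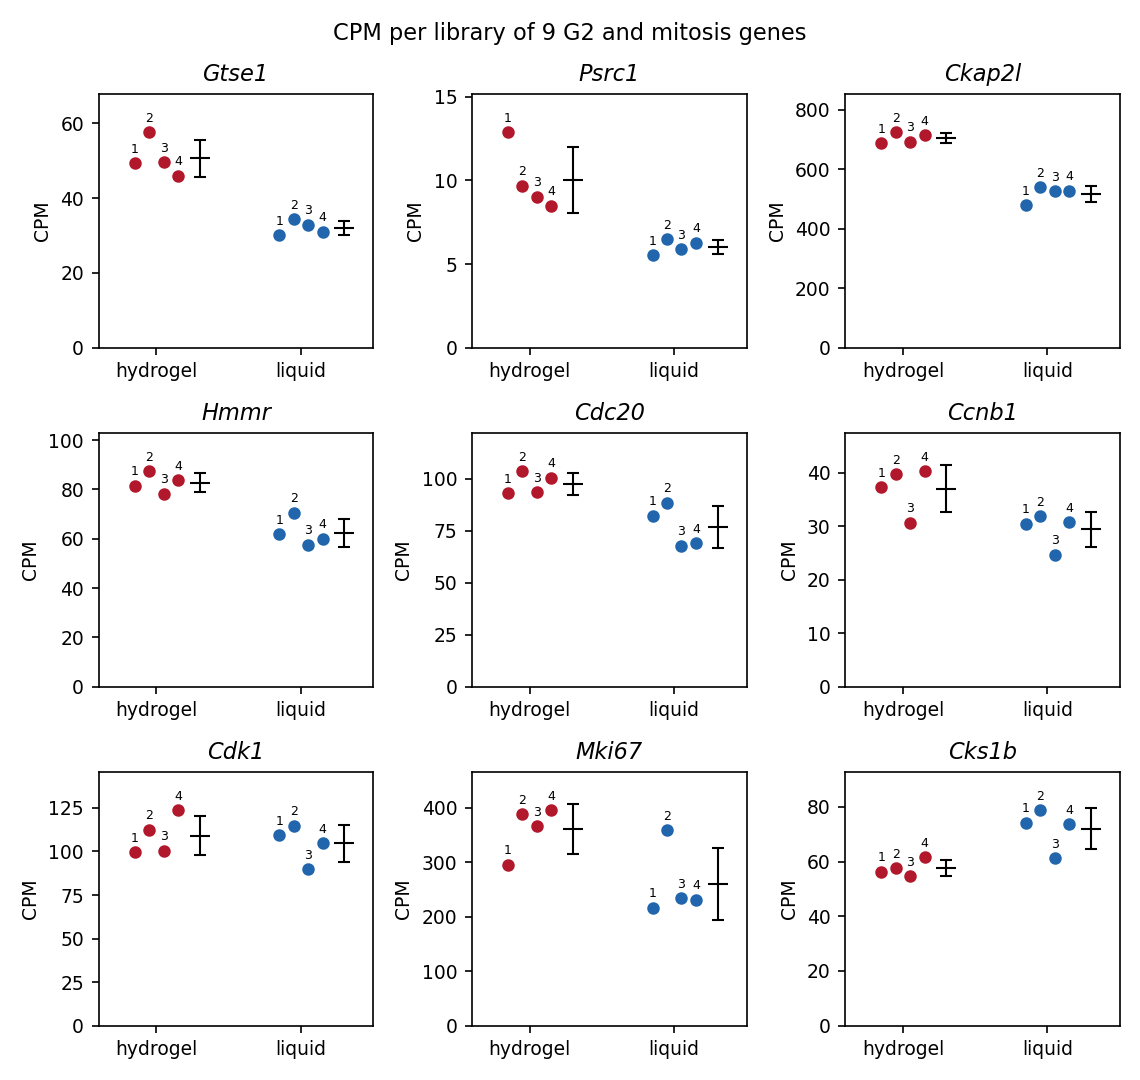
CPM in each library (points, numbered by replicate) and mean ± SD of the 4 libraries (black) for 9 of the genes, hydrogel left in red and liquid right in blue, with axes from 0. The hydrogel points lie above all liquid points for Gtse1, Psrc1, Ckap2l, Hmmr and Cdc20, meet or overlap them for Ccnb1, Cdk1 and Mki67, and lie lower for Cks1b apart from liquid 3.

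The mitotic entry kinase and its partners divided. Of the 6 genes, Ccnb1 was higher, Cks1b was lower and 4 did not pass, and the median log2 fold change was 0.06. Cdk1, the kinase itself, had 99.7, 113, 101 and 124 CPM in hydrogel, against 109, 115, 89.7 and 105 CPM in liquid (log2 fold change 0.06 ± 0.10 SE, edgeR adjusted p = 0.671). The groups overlapped almost wholly, and the 95% interval of the log2 change, −0.15 to 0.27, leaves out a rise of the size seen for Gtse1. Ccnb2, one of its B-type cyclins, had 69.0, 81.2, 70.2 and 83.5 CPM in hydrogel, against 77.1, 80.9, 63.5 and 68.8 CPM in liquid (log2 fold change 0.07 ± 0.10 SE, edgeR adjusted p = 0.637), again with overlapping groups and an interval of −0.15 to 0.28. Ccnb1, the other B-type cyclin, had 37.3, 39.7, 30.7 and 40.2 CPM in hydrogel, against 30.5, 31.9, 24.6 and 30.8 CPM in liquid (log2 fold change 0.33 ± 0.11 SE, edgeR adjusted p = 0.0479). Its hydrogel 3 value lay among the liquid values, and it passed in 2 of the 8 fits that left out 1 library and not with upper-quartile scaling, with library totals alone or without the filter on low counts (edgeR adjusted p = 0.0511). In addition, 42.1% of the 50-base words in the longest Ccnb1 transcript also occur in transcripts of 6 other annotated genes, among them its pseudogene Ccnb1-ps, so reads may have been lost or shared.

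Cks1b, the small Cdk-binding subunit that is also needed to degrade the Cdk inhibitor p27, had 56.3, 57.6, 54.6 and 61.5 CPM in hydrogel, against 74.2, 78.7, 61.3 and 73.6 CPM in liquid (log2 fold change −0.32 ± 0.08 SE, edgeR adjusted p = 0.0162). Only the lowest liquid library, liquid 3, reached the hydrogel range, by falling just under hydrogel 4. The call was lost without hydrogel 3 (edgeR adjusted p = 0.0531) and with library totals alone. Cks2, its paralogue, had few reads, with 2.79, 2.00, 2.81 and 1.23 CPM in hydrogel, against 2.86, 4.01, 2.38 and 2.67 CPM in liquid, and the spread within groups was wide (log2 fold change −0.43 ± 0.28 SE, edgeR adjusted p = 0.287). The 50-base words shared with other genes came to 7.75% of the Cks1b and 29.7% of the Cks2 transcript. Cdc25c, the phosphatase that activates Cdk1, had 15.3 ± 0.801 CPM in hydrogel and 13.6 ± 1.27 CPM in liquid (SD, n = 4 each) and did not pass (edgeR adjusted p = 0.216).

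Within-library ratios, which no scaling between libraries can move, were computed for 12 pairs of partner genes, and 3 of the 12 did not overlap between the groups. Among all tested genes taken singly, 14.6% lay wholly above and 13.8% wholly below. No such share was computed for ratios of other gene pairs, so the count of 3 has no background of its own. The ratios printed were chosen after their values were seen and are a description only: over the 12, none passed a two-sided exact permutation test (adjusted p = 0.114 for each of the 3, with 0.0286 the smallest unadjusted p that 4 against 4 libraries allow). The ratio of Ccnb1 to Cdk1 was 0.374, 0.353, 0.305 and 0.326 in hydrogel, against 0.278, 0.278, 0.275 and 0.294 in liquid. The ratio of Cks1b to Cdk1 was 0.565, 0.511, 0.544 and 0.497 in hydrogel, against 0.678, 0.686, 0.683 and 0.703 in liquid. By contrast, Ccnb2 to Cdk1 averaged 0.697 in hydrogel and 0.693 in liquid. Neither ratio of Ccnb1 or of Cks1b to Cdk1 overlapped between the groups, and in liquid each varied little from library to library, liquid 2 included. The ratio of Ccnb1 to Ccnb2 was 0.540, 0.490, 0.437 and 0.482 in hydrogel, against 0.395, 0.394, 0.388 and 0.448 in liquid, and here the groups overlapped, since hydrogel 3 lay under liquid 4. The ratio of Ckap2l to Ckap2 was 24.8, 26.6, 26.2 and 25.9 in hydrogel, against 15.9, 18.4, 18.9 and 20.5 in liquid, also without overlap.

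Among the kinetochore and centromere genes, 2 of 6 were higher (33.3%, where 15.1% of all tested genes were) and 0 lower, with a median log2 fold change of 0.08. Cenpe, a kinesin that aligns chromosomes, had 67.5, 85.2, 82.3 and 77.9 CPM in hydrogel, against 40.9, 69.5, 48.1 and 46.6 CPM in liquid (log2 fold change 0.61 ± 0.15 SE, edgeR adjusted p = 0.0136). Liquid 2 reached just above hydrogel 1, and the other 3 liquid libraries lay below every hydrogel library. Cenpf, a large microtubule-binding kinetochore protein, averaged 57.9 ± 6.27 CPM in hydrogel and 42.4 ± 8.36 CPM in liquid (SD, n = 4 each; log2 fold change 0.45 ± 0.13 SE, edgeR adjusted p = 0.0293). Its liquid 2 value, 54.9 CPM, stood clear of the other liquid values and above that of hydrogel 1. Cenpa, the histone H3 variant that marks centromeres, had 64.8, 74.7, 64.5 and 80.7 CPM in hydrogel, against 75.7, 74.0, 64.6 and 78.0 CPM in liquid (log2 fold change −0.04 ± 0.09 SE, edgeR adjusted p = 0.789), with overlap throughout. The CENP-A chaperone gene Hjurp and the outer kinetochore genes Ndc80 and Nuf2 had log2 fold changes of 0.08, 0.08 and 0.03, and their 95% intervals all spanned 0. Cenpf passed in 2 of the 8 fits that left out 1 library, and Cenpe in all 8.

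Of the 4 checkpoint genes, Bub1 alone passed in edgeR with culture alone in the model and all 8 libraries. DESeq2 called Ttk as well, and edgeR with the replicate number as a block called both Bub1b and Ttk as well. Of the 8 fits that left out 1 library, 2 called Bub1b and 1 called Ttk. Bub1, a kinase which recruits checkpoint proteins to kinetochores, had 44.1 ± 3.19 CPM in hydrogel and 34.6 ± 4.95 CPM in liquid (SD, n = 4 each, log2 fold change 0.35 ± 0.11 SE, edgeR adjusted p = 0.0327). Bub1 passed in 2 of the 8 fits that left out 1 library and neither with upper-quartile scaling nor with library totals alone. Bub1b (BubR1, a part of the complex that inhibits Cdc20) had a log2 fold change of 0.34 (edgeR adjusted p = 0.0748) and Ttk (the kinase Mps1, which starts checkpoint signalling) 0.31 (edgeR adjusted p = 0.0688). These values lie close to that of Bub1. Mad2l1 (Mad2, the other arm of the inhibitor of Cdc20) had 57.7 ± 4.72 CPM in hydrogel and 57.0 ± 4.74 CPM in liquid (SD, n = 4 each), and its interval of −0.17 to 0.20 lies below the estimates of the other checkpoint genes.

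Cdc20, the activator of the anaphase-promoting complex that the checkpoint holds back, had 92.9, 104, 93.5 and 100.4 CPM in hydrogel, against 82.2, 88.3, 67.7 and 69.0 CPM in liquid (log2 fold change 0.35 ± 0.09 SE, edgeR adjusted p = 0.0197). All hydrogel values exceeded all liquid values, by a narrow margin over liquid 2, and the call was lost without hydrogel 2, hydrogel 4 or liquid 4 (edgeR adjusted p of up to 0.0625). Of its 50-base words, 11.4% occur in 2 other annotated genes. Ube2c, the ubiquitin-conjugating enzyme of the complex, averaged 117 ± 14.9 CPM in hydrogel and 105 ± 13.6 CPM in liquid (SD, n = 4 each) and did not pass (edgeR adjusted p = 0.346). Cdca3, an adaptor for mitotic entry that is itself degraded through the complex, averaged 72.5 ± 7.50 CPM in hydrogel and 67.2 ± 8.64 CPM in liquid (SD, n = 4 each) and did not pass (edgeR adjusted p = 0.470).

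None of the 8 genes of chromosome structure and the nuclear envelope passed, although 7 of the 8 estimates were above 0, with a median of 0.17. At an unadjusted p under 0.05 in edgeR 2 of them passed, Mki67 and Top2a. DESeq2, limma-voom and edgeR without the filter on low counts each called Mki67, and edgeR with the replicate number as a block called Mki67 and Top2a. Of the 8 fits that left out 1 library, 2 called Mki67 and 1 called Top2a, Cdca2 and Smc4. Mki67, the Ki-67 protein that coats mitotic chromosomes and is used as a proliferation marker, had 296, 389, 366 and 396 CPM in hydrogel, against 217, 359, 235 and 231 CPM in liquid (log2 fold change 0.47 ± 0.16 SE, edgeR adjusted p = 0.0520). It missed the threshold narrowly, and liquid 2 stood with the hydrogel libraries while the other 3 liquid libraries lay below all of them. Top2a, the topoisomerase that untangles sister chromatids, had 332, 394, 359 and 399 CPM in hydrogel, against 304, 363, 248 and 311 CPM in liquid (log2 fold change 0.28 ± 0.11 SE, edgeR adjusted p = 0.0970). The groups overlapped through liquid 2 alone. The histone H2A.Z chaperone gene Anp32e had 235, 225, 223 and 229.9 CPM in hydrogel, against 262, 257, 229 and 252 CPM in liquid (log2 fold change −0.13 ± 0.06 SE, edgeR adjusted p = 0.160), and it was the only one of the 8 with an estimate below 0.

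The other 5 of this group, the condensin genes Smc4 and Ncapd2, Cdca2 (a protein phosphatase subunit on anaphase chromatin), Tmpo (LAP2, which anchors the nuclear lamina) and the chromatin protein gene Hmgb2, had log2 fold changes of 0.13 (Ncapd2) to 0.23 (Cdca2), with edgeR adjusted p of 0.230 (Smc4) to 0.492 (Hmgb2). With hydrogel 1 and liquid 2 both left out, 6 of the 8 were higher: Mki67, Top2a, Cdca2, Smc4, Tmpo and Ncapd2. In that fit 21.6% of all tested genes were higher. The libraries left out were chosen with their values known, so a larger count follows from the choice. Of the Hmgb2 transcript, 21.9% of 50-base words occur in other genes.

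**Figure D3:**
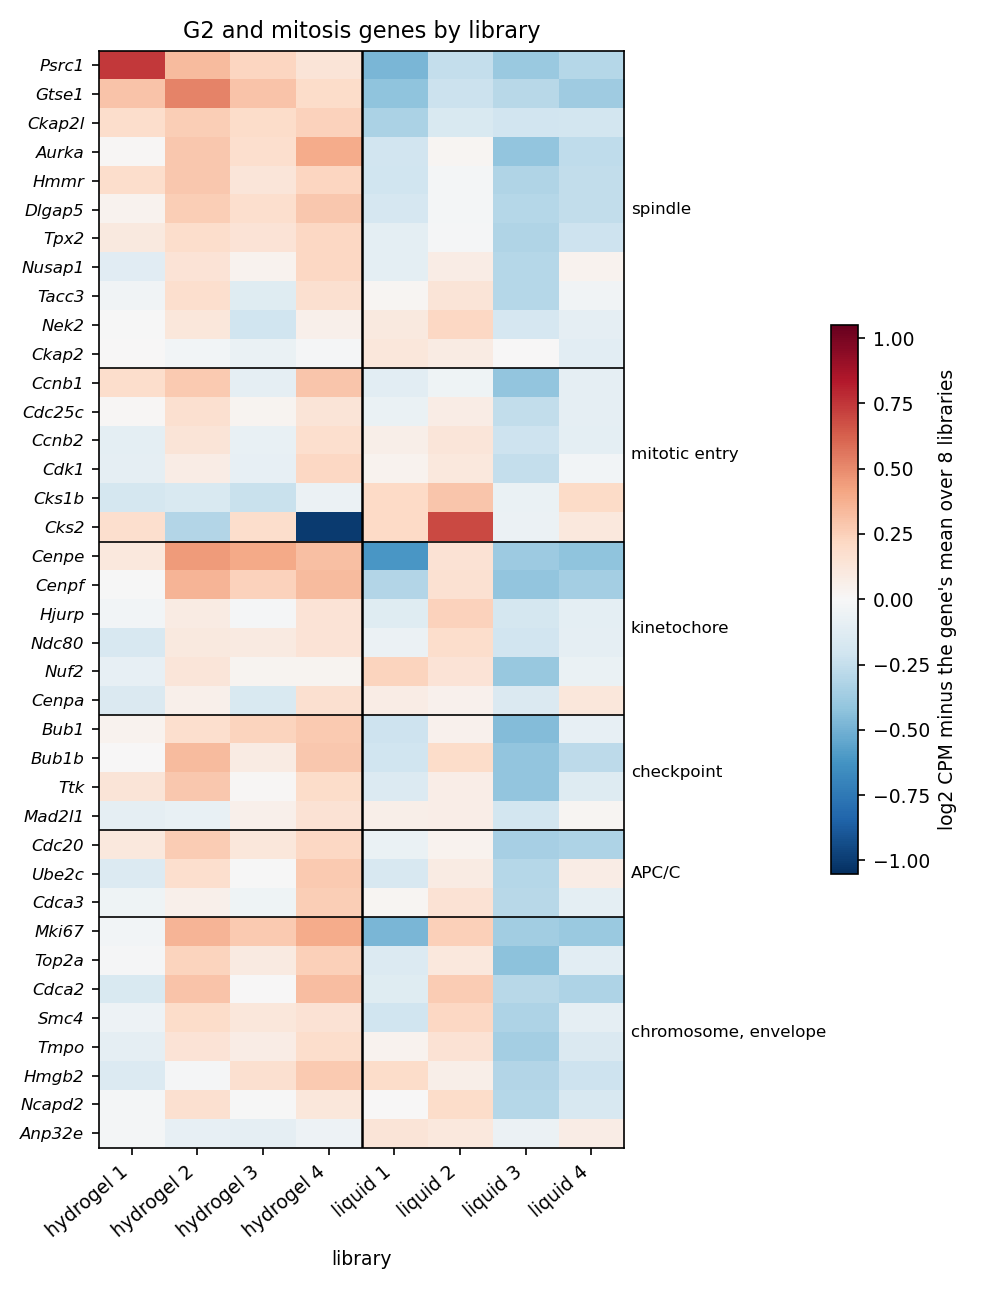
Log2 CPM of the 38 genes (down the page, grouped by role) in the 8 libraries (hydrogel on the left of the vertical line, liquid on the right), each gene centred on its mean over the libraries. Hydrogel 2 and 4 and liquid 2 are mostly red, liquid 3 is mostly blue, and Cks1b and Cks2 break the pattern of their neighbours.

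The genes varied together across libraries within each group. Liquid 2 was the highest liquid library for 33 of the 38, including all 12 that were higher in hydrogel, and liquid 3 was the lowest for 31. In hydrogel, library 4 was the highest for 20 and library 2 for 14, while library 1 was the lowest for 26. Summed over the 38 genes, CPM came to 3755, 4248, 3944 and 4292 in hydrogel, against 3383, 3945, 3062 and 3371 in liquid, so that liquid 2 reached the hydrogel range and hydrogel 1 was the lowest of its group. These are the same libraries that stood apart in the macrophage markers. They also stood apart in the megakaryocyte markers, whose mean centred log2 CPM was 0.087 in hydrogel 1, where hydrogel 2, 3 and 4 had −0.440 to −0.318, and −0.183 in liquid 2, where liquid 1, 3 and 4 had 0.330 to 0.531, and on the first principal component of all tested genes (65.1% of the variance). The part of either in these genes' values was not tested. Per kilobase of exon, Ckap2l was the most abundant of the 38 in both groups (mean 225 CPM per kilobase in hydrogel and 165 in liquid), ahead of Anp32e (64.0 and 70.0), and the median over the 38 was 15.3 in hydrogel and 12.4 in liquid.

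Other genes of the mitotic machinery, grouped by list, differed from one list to another in their counts. Kinesin and cytokinesis genes had 9 of 26 tested higher and 0 lower, with a median log2 fold change of 0.18. They included Kif4, a chromosome-associated kinesin, with 57.9 ± 3.81 CPM in hydrogel and 42.0 ± 5.41 CPM in liquid (SD, n = 4 each), Kif14, a kinesin of cytokinesis (1.36-fold higher), and Kif18b, which shortens microtubules (1.39-fold higher). The count of 9 became 4 without hydrogel 2, hydrogel 4 or liquid 4, 5 without hydrogel 3, liquid 1 or liquid 3 and with upper-quartile scaling, 16 without liquid 2, 19 without both hydrogel 1 and liquid 2, and 0 once the macrophage score entered the model. The share of all tested genes that were higher moved too, at 10.4% to 12.7% in the fits with 4 or 5, 18% without liquid 2, 21.6% without both libraries and 2.46% with the score. The rest of the mitotic entry regulators had 2 of 18 higher and 0 lower (median 0.02). Mastl (Greatwall kinase, which restrains the phosphatase that opposes Cdk1) had 12.0, 16.3, 16.2 and 14.3 CPM in hydrogel, against 10.2, 11.7, 10.8 and 10.2 CPM in liquid (log2 fold change 0.45 ± 0.12 SE, edgeR adjusted p = 0.0171). Mybl2 (B-Myb, the partner of MuvB on mitotic promoters) had 22.1, 25.9, 22.6 and 24.5 CPM in hydrogel, against 17.2, 20.9, 15.6 and 12.5 CPM in liquid (log2 fold change 0.52 ± 0.14 SE, edgeR adjusted p = 0.0211). Neither overlapped between the groups.

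The rest of the kinetochore, cohesin and checkpoint genes had 0 of 31 higher and 1 lower (Cenpm, a centromere protein; log2 fold change −0.52, edgeR adjusted p = 0.0447), with a median of 0.06, and at an unadjusted p under 0.05 in edgeR 3 were higher and 2 lower. DESeq2 and limma-voom likewise called 0 of these 31 higher, and limma-voom did not call Cenpm. Among the listed subunits of the anaphase-promoting complex, together with Fbxo5 and Ube2s, 0 of 16 were higher and 1 was lower (median −0.03). At an unadjusted p under 0.05 in edgeR 0 were higher and 2 lower. DESeq2 and limma-voom, read at an adjusted p of 0.05, also called 0 of the 16 higher. The 1 lower gene in edgeR was Anapc13, a small structural subunit, with 16.1, 14.2, 14.2 and 17.1 CPM in hydrogel, against 25.0, 23.8, 22.5 and 21.8 CPM in liquid (log2 fold change −0.59 ± 0.09 SE, edgeR adjusted p = 0.00139). The other condensin genes had 0 of 6 called in either direction, with a median of 0.25, though 2 were higher at an unadjusted p under 0.05 in edgeR; DESeq2 and limma-voom called 0. DNA replication and S phase genes had 1 of 54 higher and 2 lower, with a median of 0.03. Rrm2 (ribonucleotide reductase; 0.54) was the higher gene, and the lower genes included Rfc2 (clamp loader; −0.27). These shares are to be read against the 15.1% and 14.1% of all tested genes that were higher and lower.

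**Figure D4:**
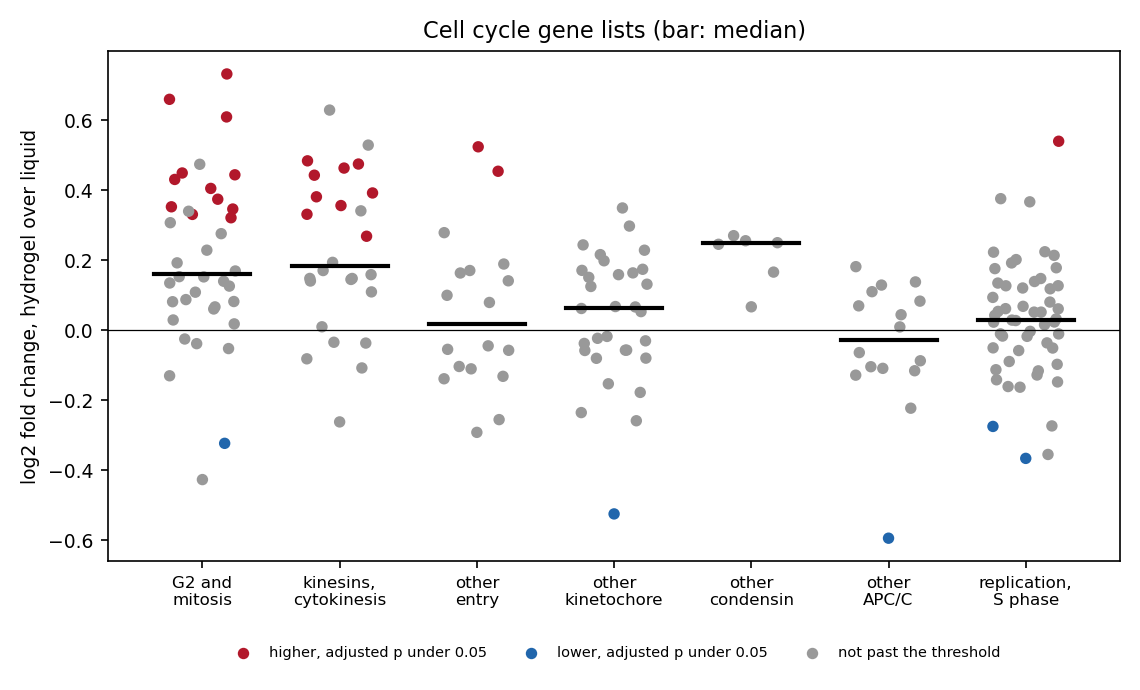
Log2 fold change (hydrogel over liquid) of every tested gene in 7 cell cycle lists, with black bars at the medians. Red points were higher and blue points lower at an adjusted p of 0.05. The medians are 0.16 for the 38 G2 and mitosis genes, 0.18 for kinesins and cytokinesis and 0.03 for replication and S phase.

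**Figure D5:**
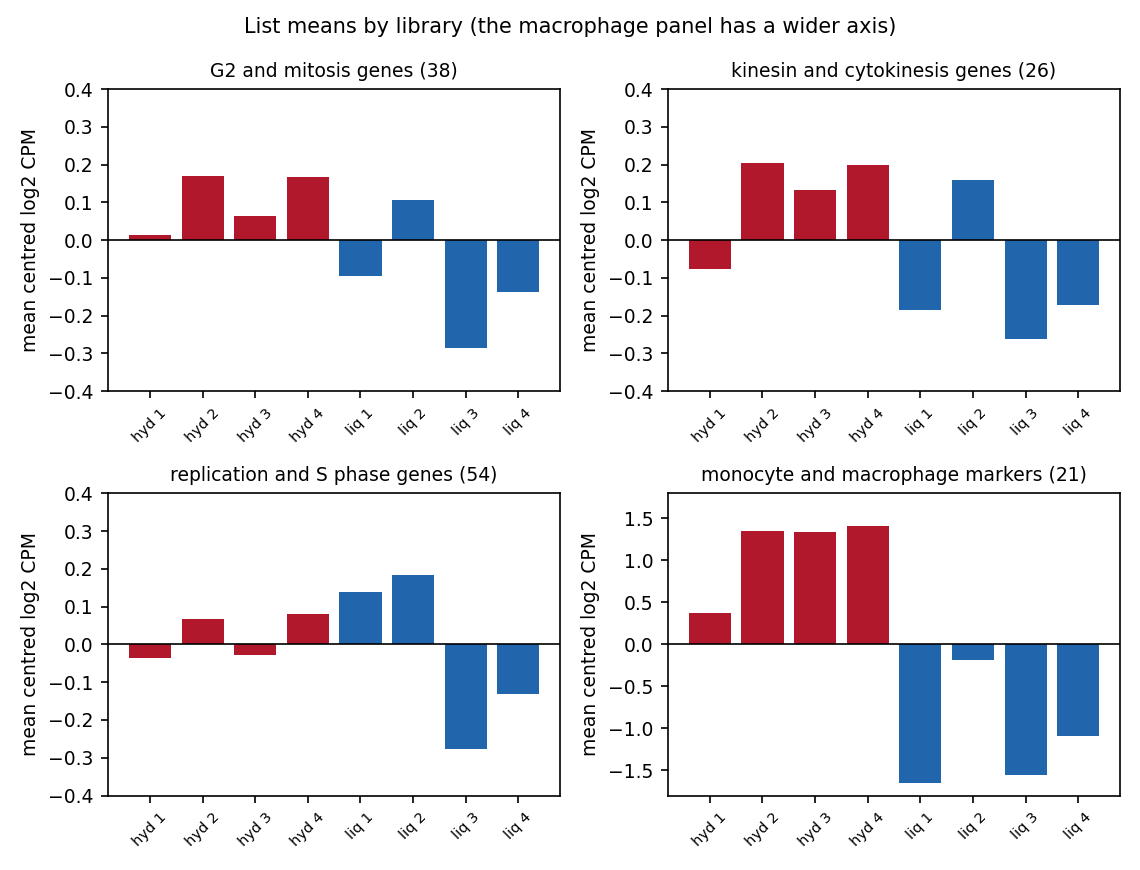
Mean over each list of log2 CPM centred on each gene's mean, by library (hydrogel red, liquid blue), for 4 lists. The G2 and mitosis mean is 0.013 in hydrogel 1 and 0.106 in liquid 2, the macrophage marker mean 0.375 and −0.18 in the same libraries, and the macrophage panel has a wider axis.

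By library, the mean centred log2 CPM of the 38 genes was 0.013, 0.169, 0.063 and 0.166 in hydrogel, against −0.094, 0.106, −0.285 and −0.137 in liquid. For replication and S phase genes it was −0.036, 0.068, −0.029 and 0.081 in hydrogel, against 0.139, 0.184, −0.277 and −0.13 in liquid. Liquid 1 thus lay below its gene means for mitosis and above them for replication, while liquid 3 was lowest for both. For the macrophage markers the means were 0.375, 1.35, 1.333 and 1.414 in hydrogel, against −1.647, −0.18, −1.553 and −1.093 in liquid. Other marrow cells were represented by mast cell and basophil markers (0 of 8 tested higher, 7 lower) and stem and progenitor markers (2 of 14 higher, 6 lower). Granulocyte progenitor markers (2 of 12 higher, 0 lower) and erythroid markers (2 of 7 higher, 2 lower) were listed too. Of all tested genes, 15.1% were higher and 14.1% lower. The shares higher of the stem and progenitor list (14.3%) and the granulocyte progenitor list (16.7%) were close to that background. The part of these cells in the mitosis transcripts was not tested.

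Exons of 8 of the 38 genes overlap an annotated gene on the opposite strand, by 22.8% of the exon bases for Ube2c (with Tnnc2), 12.7% for Cdc25c and 8.14% or less for Tacc3, Nek2, Ckap2l, Nusap1, Cdc20 and Tmpo. The libraries were stranded, but no source used here gives the strand setting of the counting, so the counts of these 8 may include reads of the partner.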

How the data were processed

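Gene expression was measured in 8 libraries, 4 hydrogel and 4 liquid, grouped by the sample labels. The authors deposited whole-number read counts for each gene, unnormalized, and per the submitters' processing notes they were made with bcl2fastq, STAR 2.7.10b and HTSeq 0.13.5 on GRCm39. Symbols and exon lengths were matched by identifier to GENCODE M21 (26534 of 27679 identifiers), and 2 lines of text without a gene were dropped. Genes kept by filterByExpr were scaled by TMM and tested with edgeR 4.0.16 (quasi-likelihood, R 4.3.3) in a model of culture alone, adjusting p by Benjamini-Hochberg over all 13845 genes at 0.05. The SE is the log2 fold change divided by the square root of F. The code was tested on simulated counts. Promoters came from RefSeq.

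Every one of the 38 genes is named. All 8 values are given for up to 8 genes with the smallest adjusted p in each direction, a fixed panel (Cdk1, Ccnb1, Ccnb2, Cdc20, Mki67, Top2a, Aurka, Cenpa), genes whose groups do not overlap and genes against the prevailing direction. Of other lists up to 3 genes that passed are named, except one lower gene of the DNA replication list, which is not reported here. Genes, lists, alternatives and the rule were chosen with earlier results of these data known. Alternatives were other scalings and filters, DESeq2 1.42.0, limma-voom (limma 3.58.1), a replicate block, an adjusted p of 0.01, each library left out, hydrogel 1 and liquid 2 both left out, and the macrophage score as a covariate.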

Additional observations from a re-analysis of the deposited data

Results flagged for a closer look

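Within a group of 4 libraries, 4 of the 76 sets of values (38 genes in each of 2 groups) had 1 library far from the other 3 relative to the range of the group. Chance gives about 1 in 20, and 4 of 76 is close to that share. In liquid 2, Mki67 stood at 359.1 CPM, Cenpf at 54.87 CPM and Hjurp at 168.2 CPM, each above the other liquid libraries. In hydrogel 1, Ndc80 stood at 14.82 CPM, below the other hydrogel libraries. These libraries also stood apart in the macrophage markers, the megakaryocyte markers and the first principal component of all tested genes. The part of that in these values was not tested.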

How the results depend on the processing

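The 12 higher and 1 lower genes became 12 and 1 with DESeq2's size factors, without a filter and with at least 1 CPM in 4 libraries, 10 and 1 with upper-quartile scaling, 10 and 0 with library totals alone, 14 and 1 with DESeq2, and 13 and 1 with limma-voom. Without a filter the 12 held Mki67 in place of Ccnb1. At an adjusted p of 0.01 they were 5 and 0, and 2091 genes were called in all. With hydrogel 1 and liquid 2 both left out 23 were higher and the median was 0.30. With the score of macrophage markers added to the model 0 were higher and 0 lower, the median was −0.26 and 610 genes were called. Leaving out 1 library gave 8 to 18 higher, 0 to 1 lower, a median of 0.10 to 0.23, and 2700 to 4975 genes called, against 4052. Over all genes, 2096 were higher and 1956 lower; upper-quartile scaling gave 1755 and 2492, and library totals 2280 and 1513.

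Signs of single genes turned under the covariate for Aurka (−0.12), Bub1 (−0.17), Bub1b (−0.34), Ccnb2 (−0.28), Cdc25c (−0.14), Cdca2 (−0.54), Cdca3 (−0.28), Cdk1 (−0.28), Cenpe (−0.25), Cenpf (−0.31), Dlgap5 (−0.0064), Hjurp (−0.40), Hmgb2 (−0.18), Mad2l1 (−0.22), Mki67 (−0.49), Ncapd2 (−0.29), Ndc80 (−0.45), Nuf2 (−0.26), Nusap1 (−0.35), Smc4 (−0.45), Tacc3 (−0.26), Tmpo (−0.31), Top2a (−0.28), Ttk (−0.052) and Ube2c (−0.42). They turned with library totals for Cenpa (0.025), Ckap2 (0.0090) and Nek2 (0.032), with upper-quartile scaling for Mad2l1 (−0.037) and Nuf2 (−0.027), and with both libraries left out for Cenpa (0.026) and Nek2 (0.063). When 1 library was left out, the log2 changes spanned 0 for Cdk1 (−0.00687 to 0.107), Cenpa (−0.103 to 0.00736), Mad2l1 (−0.0404 to 0.0533), Nek2 (−0.0854 to 0.0455) and Nuf2 (−0.0839 to 0.119). The cause of these shifts was not tested.

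With the replicate number as a block, 16 genes were higher and 1 lower, and 4238 genes were called. The main fit did not treat the numbers as pairing the libraries, and whether they do is not settled here. Deviations of same-numbered libraries from their group means correlated at 0.22, 0.33, −0.134 and 0.103. Of the hydrogel libraries 1 of 4, and of the liquid libraries 3 of 4, correlated best with the library of their own number. Depth limits Cks2 most, with 38 to 122 counts per library and an SE of 0.28.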
